A study of Homo sapiens with 12 samples.

Results

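The insulin-like growth factor (IGF) genes described here were the ligands IGF1 and IGF2, the receptors IGF1R and IGF2R, and the binding proteins IGFBP2, IGFBP3, IGFBP4, IGFBP5, IGFBP6 and IGFBP7. These 10 genes were chosen by name from the 60671 in the count table of human BJ-5ta fibroblasts. All 10 were found, and 7 passed the filter of more than 1 CPM, a count scaled to the total gene counts of its library, in at least 3 libraries, which left 13236 genes to test. IGF1, IGF2 and IGFBP2 stayed under the filter and are given as raw counts.

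IGF1 and IGF2 are secreted growth factors that act through the tyrosine kinase IGF1R, which signals through IRS adaptors, PI3K and AKT. IGF2R, also the mannose 6-phosphate receptor, takes IGF2 to lysosomes and so clears it. The binding proteins hold IGFs outside the cell, where they either keep them from the receptor or store them, and secreted proteases such as pappalysin (PAPPA) cut them and set the ligand free.

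BJ-5ta are skin fibroblasts immortalized with telomerase, an alteration that every group shares. Wild-type cells were compared with clone 13, a single ΔLEO1 clone in which CRISPR/Cas9 had removed the first exons of LEO1, a subunit of the PAF1 complex that accompanies RNA polymerase II. Both were sampled in 10% serum, here called fed, and after 10 days in 0.1% serum, here called starved or low serum. Each of the 4 groups had 3 libraries, and effects of losing LEO1 cannot be told apart from other properties of this clone. The sources do not say if these came from separate cultures, so p-values measure only the spread between these libraries.

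Gene counts per library lay between 26240632 and 45315560, and ERCC transcripts, synthetic RNAs added to each RNA sample, took 0.625% to 3.24% of all counts. The highest-numbered library of each group (libraries 3, 6, 9 and 12) stood apart from the others. Pairs that included it differed by a chi-square per gene of 66.2 to 144, against 3.04 to 12.1 for the pairs without it, and calls of members that change without these libraries are given both ways. LEO1 had 682 to 1001 counts in the 6 wild-type libraries and 23 to 55 in the 6 libraries of the clone, which matched the labels. All 10 fibroblast markers were present in every library, from 71.0 CPM upward, and 14 of 19 markers of epithelial, endothelial, blood, melanocyte and muscle cells stayed under 1 CPM throughout. Summed, the 19 markers had 3.67 to 4.74 CPM in wild-type libraries and 9.04 to 14.5 CPM in those of the clone. PTPRC, a leukocyte gene, had 0.20 to 0.63 CPM in wild type and 1.37 to 7.10 CPM in the clone. MYH11, a smooth muscle gene, had 0.03 to 0.20 CPM in wild type and 0.29 to 8.82 CPM in the clone, with the highest value in library 6. The part of these markers in the differences between genotypes was not tested.

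Every value was read on 2 scales. The ERCC-scaled count is a gene's reads scaled to the effective number of ERCC reads in place of the library total, and follows the amount of a transcript relative to the added RNA. CPM, and the fit with TMM factors computed on the genes, follow a gene relative to the other genes. On the ERCC scale the median of all 13236 genes changed by −0.97 (log2) in low serum in wild-type cells and by −1.05 in ΔLEO1 cells, whereas it lay at 0.00 and 0.01 on the gene scale. Between ΔLEO1 and wild-type cells the ERCC-scale median was 0.35 in 10% serum and 0.27 in 0.1% serum. In such bulk samples fewer cells of a kind and less RNA per cell cannot be told apart.

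The binding proteins were the abundant members. In fed wild-type cells, IGFBP5 stood at 2386 ± 87.4 CPM per kilobase of annotated exon (SD, n = 3), which put it at rank 4 or 5 among 13192 genes ranked in each library. IGFBP3 (583 ± 190), IGFBP4 (547 ± 106) and IGFBP7 (527 ± 69.2) followed on the same scale and did not differ from one another beyond their spread. IGFBP6 had 304 ± 30.9 CPM per kilobase. The receptors were far lower, with 16.8 ± 0.60 for IGF2R and 10.6 ± 0.37 for IGF1R. The ligands, as counted, were lower still, with 0.082 ± 0.022 for IGF2 and 0.044 ± 0.0063 for IGF1. These ligand values may be too low, since 73.7% of the exon bases of IGF2 and 82.4% of those of IGF1 overlap other gene records. Reads there may not have been counted. IGFBP2 stood at 0.0091 ± 0.0061, below both ligands.

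That order was not the same in the other groups. In fed ΔLEO1 cells IGFBP3 led with 1190 ± 56.3 CPM per kilobase, followed by IGFBP7 (567 ± 42.1), IGFBP5 (401 ± 33.8), IGFBP4 (218 ± 5.45) and IGFBP6 (144 ± 6.28). In starved wild-type cells IGFBP4 came first (608 ± 92.9), above IGFBP7 (422 ± 26.3) without overlap. IGFBP6 (457 ± 113), IGFBP7 and IGFBP5 (421 ± 96.3) had overlapping ranges, and IGFBP3 had the lowest mean of the 5, 284 ± 95.2. In starved ΔLEO1 cells IGFBP7 (559 ± 45.6), IGFBP4 (493 ± 43.7) and IGFBP3 (402 ± 64.5) came first, ahead of IGFBP5 (296 ± 69.1) and IGFBP6 (236 ± 56.2). The lengths are merged exons of the GENCODE annotation, and isoforms were not told apart. For IGFBP3 the merged exons had 4571 bases and the longest transcript 2412. Its level beside the other genes, in fed wild-type cells too, thus depends on the length used.

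**Figure D1:**
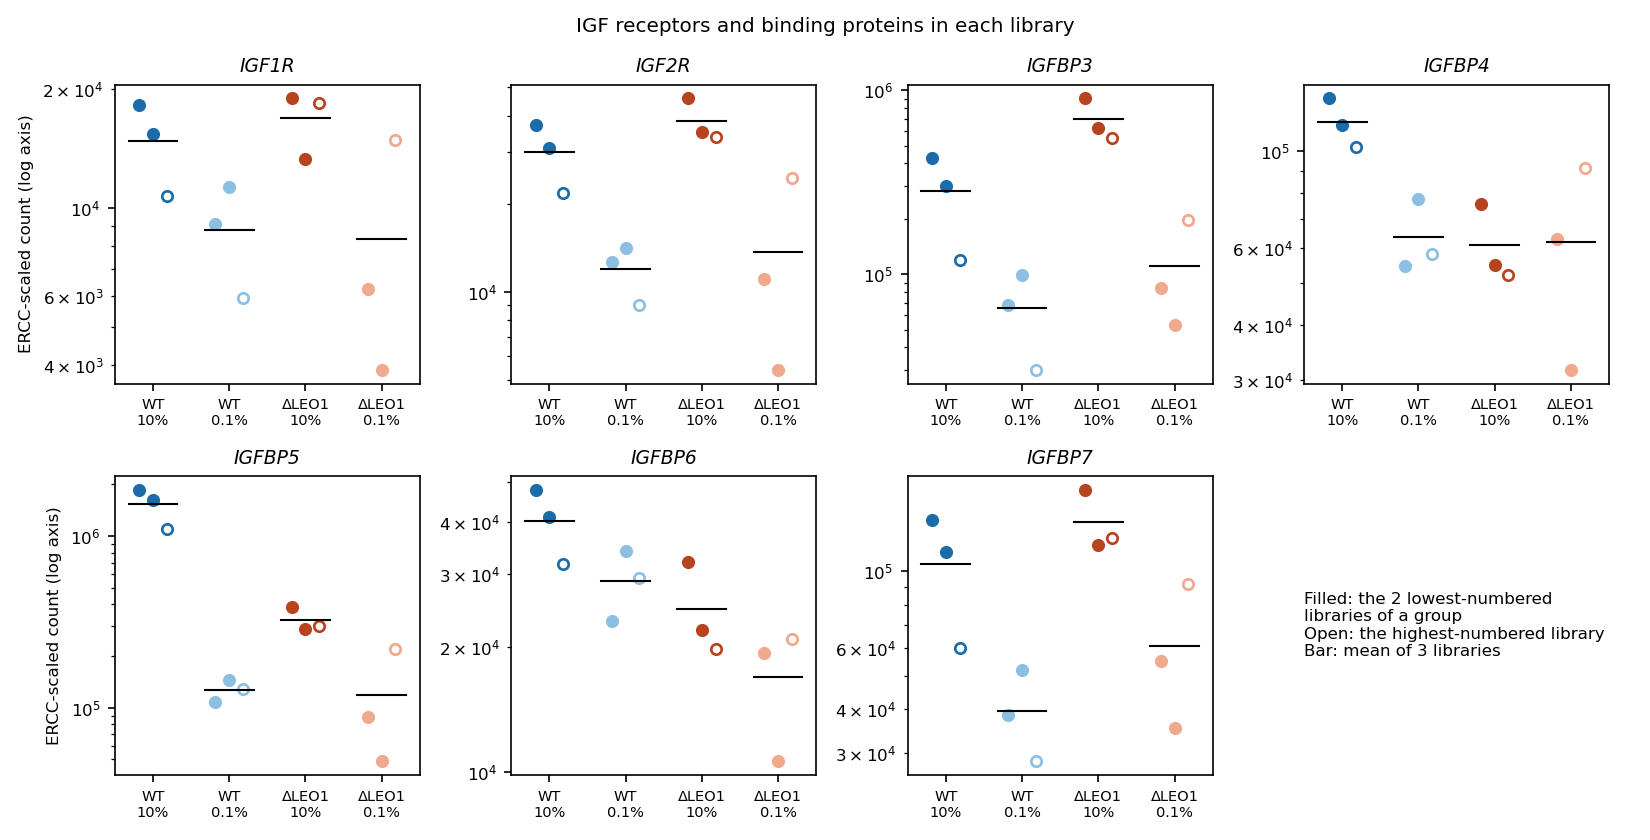
ERCC-scaled counts (log axis) of the 2 receptors and 5 binding proteins in each of the 12 libraries, by genotype and serum, with bars at the group means and open symbols for the highest-numbered library of a group. IGFBP5 ran from 1106980 to 1867110 in fed wild-type cells and from 48653 to 388851 in all other libraries.

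As counted, the ligand transcripts were near the limit of detection. IGF1 had 13, 16 and 12 counts in fed wild-type cells, 4, 3 and 1 after low serum, 3, 4 and 7 in fed ΔLEO1 cells and 3, 0 and 2 in starved ΔLEO1 cells. The wild-type libraries in 10% serum did not overlap with those of any other group. Summed over the libraries, wild-type counts on the ERCC scale were 8.58-fold higher in 10% than in 0.1% serum (95% counting interval 3.97 to 21.2). Such intervals cover counting error only. In the fit with no filter, IGF1 fell by 3.04 on the log2 scale in wild-type cells (SE 0.80, adjusted p = 0.0031), and the clone in 10% serum had −1.43 against wild type (adjusted p = 0.33). Most of its exon bases (82.4%) overlap HELLPAR on the opposite strand. The strand setting of the counting is not given in the sources used here, so reads of IGF1 and HELLPAR may not be separated.

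In the gene record counted here, IGF2 was seen mainly in wild-type cells. Its counts were 15, 23 and 28 in wild type in 10% serum and 21, 24 and 12 in 0.1% serum, against 7, 2 and 0 in fed ΔLEO1 cells and 0 in all 3 ΔLEO1 libraries in 0.1% serum. Within each serum, no library of the clone reached the lowest wild-type library. A count of 0 allows up to 3 counts, which is 0.0850 to 0.0922 CPM in these libraries. With 3 counts in each library of the clone as a floor, IGF2 was at least 6.51-fold higher in wild type in 0.1% serum on the ERCC scale. In 10% serum the summed counts were 6.31-fold higher in wild type (95% counting interval 3.13 to 14.4), and the fit with no filter gave −2.48 for the clone (SE 0.74, adjusted p = 0.016). In low serum wild-type IGF2 did not pass in that fit (−0.78, adjusted p = 0.38). These values are uncertain, since 73.7% of the exon bases of IGF2 are shared on the same strand with another gene record of that name. A further gene, the readthrough INS-IGF2, shares 20.9%, and reads in shared exons can be split or dropped in counting. The other IGF2 record is also among the genes counted, and its counts are not given here. The level of IGF2 over both records is thus not known from these values. INS-IGF2 had no count in any library.

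IGFBP2, which has a higher affinity for IGF2 than for IGF1, was scarce and had higher counts in low serum. It had 1, 3 and 1 counts in fed wild-type cells and 33, 19 and 18 in 0.1% serum, with no overlap. The clone had 1, 0 and 0 counts in 10% serum and 14, 4 and 0 in 0.1% serum, which overlap. The ratio of the wild-type sums was 8.37 on the ERCC scale (95% counting interval 3.42 to 26.6), and the fit with no filter gave a rise of 3.04 (log2, SE 0.88, adjusted p = 0.0055). In the clone the ratio was 8.90 with a wide interval (1.40 to 371), and the fit gave 2.87 (SE 1.58, adjusted p = 0.074). At 0.03 to 0.98 CPM in wild-type cells it remained a minor transcript beside the other binding proteins.

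**Figure D2:**
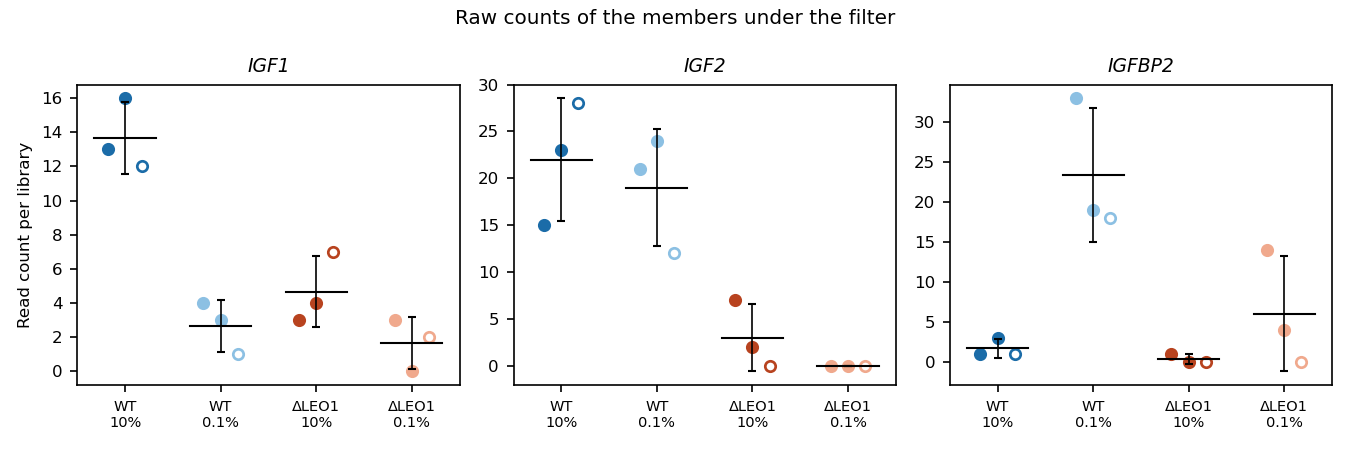
Raw read counts of IGF1, IGF2 and IGFBP2 in each library by group, with means and SD of 3 libraries and open symbols for the highest-numbered library. IGF2 is at 0 in the 3 ΔLEO1 libraries in 0.1% serum, and IGFBP2 is highest in starved wild-type cells, with 18 to 33 counts.

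IGF2R was lower in starved cells of both genotypes, and neither receptor differed detectably between the genotypes when all libraries were used. IGF2R had ERCC-scaled counts of 37120, 30914 and 21726 in fed wild-type cells and 12578, 14122 and 9031 in 0.1% serum. Fed ΔLEO1 cells had 45883, 35048 and 33689, and starved ones 11055, 5396 and 24383. In neither genotype did the serum groups overlap. IGF2R fell by 1.33 (log2, SE 0.44, adjusted p = 0.018) in wild-type and by 1.49 (SE 0.44, adjusted p = 0.0098) in ΔLEO1 cells, which is 0.36 and 0.44 further than the median gene. Relative to the other genes the falls were smaller, −0.36 (adjusted p = 0.031) and −0.53 (adjusted p = 9.8e-04). Leaving out library 1, 2, 7 or 9 ended the wild-type call on the ERCC scale (adjusted p up to 0.12), and library 4, 10 or 11 that in the clone (up to 0.092).

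IGF1R, the signalling receptor, followed the median gene. Its CPM values were 144, 146 and 154 in fed wild-type cells, 195, 187 and 159 in 0.1% serum, 120, 115 and 175 in fed ΔLEO1 cells and 119, 130 and 164 in 0.1% serum. In wild-type cells the low serum libraries were all above those in 10% serum, and in the clone the groups overlapped. IGF1R had −0.75 on the ERCC scale in low serum in wild type (SE 0.45, adjusted p = 0.14) and fell by 1.02 in the clone (SE 0.45, adjusted p = 0.049). The latter call was lost with the quasi-likelihood test (adjusted p = 0.065), with DESeq2 (0.051) and in 10 of the 12 fits that left out a library, all but those without library 3 or 12. Against the median of all genes these values were 0.22 and 0.03. Between genotypes IGF1R differed by 0.20 in 10% serum (95% interval −0.68 to 1.07) and by −0.07 in 0.1% serum (−0.95 to 0.80). Without the highest-numbered libraries, the value in 0.1% serum was −1.01 (adjusted p = 0.034), where the median of all genes was −0.42.

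For IGFBP5, IGFBP3 and IGFBP4, whose levels are compared in detail next, the 250 bases before the RefSeq start are shown so that the promoters can be set side by side. The sequences are from RefSeq on GRCh38.p14, where 8 of the 10 members had an entry (IGF2 and IGFBP7 had none), and each is written along the strand of its gene. Capitals mark matches, on either strand, to the TATA box TATAAA or the GC box GGGCGG. The windows were also searched for the FOXO motif GTAAACA and the G-box CACGTG, which had no match in them. IGFBP5 lies on the minus strand and its window is chr2:216695550-216695799. The window of IGFBP3, also on the minus strand, is chr7:45921273-45921522, and that of IGFBP4 on the plus strand is chr17:40443200-40443449.
IGFBP5: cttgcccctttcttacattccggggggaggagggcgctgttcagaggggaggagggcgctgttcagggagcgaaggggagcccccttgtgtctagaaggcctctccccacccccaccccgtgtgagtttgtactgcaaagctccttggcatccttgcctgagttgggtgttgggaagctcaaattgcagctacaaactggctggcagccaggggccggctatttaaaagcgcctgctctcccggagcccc
IGFBP3: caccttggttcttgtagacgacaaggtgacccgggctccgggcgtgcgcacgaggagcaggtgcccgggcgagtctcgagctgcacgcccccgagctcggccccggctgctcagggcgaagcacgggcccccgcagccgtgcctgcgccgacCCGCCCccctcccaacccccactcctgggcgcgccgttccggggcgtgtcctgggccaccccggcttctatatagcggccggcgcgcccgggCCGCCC
IGFBP4: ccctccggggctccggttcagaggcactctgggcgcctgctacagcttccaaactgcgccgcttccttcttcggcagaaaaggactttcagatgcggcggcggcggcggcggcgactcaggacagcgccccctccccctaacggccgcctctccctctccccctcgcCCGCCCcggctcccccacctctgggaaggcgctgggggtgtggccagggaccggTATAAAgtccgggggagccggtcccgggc

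The IGFBP4 window held a TATA box that begins 29 bases before the start and a GC box that begins 83 bases before it on the reverse strand. IGFBP3 had 2 GC boxes on the reverse strand, beginning 98 and 6 bases before the start, and IGFBP5 had neither motif. Among 35116 promoter windows of this length, 10.7% held TATAAA, 42.6% GGGCGG, 2.98% GTAAACA and 6.34% CACGTG on either strand. Only exact matches were counted, so similar stretches, such as tatata in the IGFBP3 window and tatttaaaa in that of IGFBP5, were left unmarked. The motifs are a description of the letters.

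In starved wild-type cells, 4 of the 7 tested members were called lower and 0 higher, at an adjusted p under 0.05 in edgeR's likelihood ratio test. Over all tested genes 36.1% were called lower and 0.944% higher, so a call in this direction was common. The members called were IGFBP5, IGFBP3, IGFBP7 and IGF2R. No member was higher at an unadjusted p under 0.05 either, and the quasi-likelihood test and DESeq2 also called 4 lower and 0 higher. The median of the 7 members was −1.33 against −0.97 over all genes. With TMM on the genes the same test called 4 members lower and 0 higher, where 16.6% of all genes were lower and 16% higher.

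IGFBP5, a binding protein that fibroblasts secrete and lay down in the matrix, had the largest change of the members. It had 14808, 15361 and 15934 CPM in fed wild-type cells and 2301, 2413 and 3428 CPM in 0.1% serum. The groups were far apart, and the highest-numbered library was the highest in each. On the ERCC scale IGFBP5 was 12-fold lower, a fall of 3.59 on the log2 scale (SE 0.43, adjusted p = 2.3e-11) and 2.62 further than the median gene. Fits that left out a library in turn gave −3.78 to −3.43, with adjusted p under the threshold in each. Relative to the other genes IGFBP5 fell by 2.59 (log2, adjusted p = 3.8e-38).

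IGFBP3, the main carrier of IGFs in blood and a growth inhibitor in many cell types, had 3412, 2872 and 1709 CPM in fed wild-type cells and 1450, 1639 and 809 CPM in 0.1% serum. The groups came close but did not overlap, and in each of them the highest-numbered library was the lowest. The fall was 2.11 on the ERCC scale (log2, SE 0.44, adjusted p = 1.1e-04) and 1.12 on the gene scale (adjusted p = 2.8e-04). IGFBP7, a related protein that binds IGFs weakly, fell by 1.40 (log2, SE 0.44, adjusted p = 0.012), and by 0.41 on the gene scale (adjusted p = 0.012). The ERCC-scale call of IGFBP7 was lost without library 1, 2, 7 or 9 (adjusted p up to 0.11).

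IGFBP4 and IGFBP6 did not pass in wild-type cells. IGFBP4, which inhibits IGF action and is the main substrate of PAPPA, had 1048, 1089 and 1471 CPM in 10% serum and 1164, 1285 and 1563 CPM in 0.1% serum, with overlap. Its ERCC-scale value was −0.87 (SE 0.44, adjusted p = 0.088), close to the median gene. That value passed when library 11 or 12 of the clone was left out of the shared fit (adjusted p = 0.031 and 0.028), and without all highest-numbered libraries (−0.90, adjusted p = 0.024). In the last of these fits the median of all genes was −1.03. IGFBP6, which prefers IGF2, had −0.48 (SE 0.44, adjusted p = 0.33), or 0.50 on the gene scale (adjusted p = 0.060).

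In starved ΔLEO1 cells, 5 of 7 members were called lower and 0 higher, where 47.2% of all genes were lower and 0.975% higher. These were IGFBP3, IGFBP5, IGF2R, IGFBP7 and IGF1R, and the quasi-likelihood test and DESeq2 called 4 of them, without IGF1R. No member was higher by any of these tests or at an unadjusted p under 0.05. The median of the 7 was −1.18, and that of all genes −1.05. On the gene scale 3 members were lower (IGFBP3, IGFBP5 and IGF2R) and 2 higher (IGFBP4 and IGFBP6), against 12.9% and 16.5% of all genes.

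IGFBP3 fell most in the clone, from 5728, 5364 and 5232 CPM in 10% serum to 1590, 1763 and 2165 CPM in 0.1% serum. The values within each group were close and the groups were well apart. The fall was 2.65 on the ERCC scale (log2, SE 0.44, adjusted p = 1.2e-06) and 1.63 on the gene scale (adjusted p = 7.2e-08). It fell by 3.49 (adjusted p = 1.1e-15) without the highest-numbered libraries, where the median of all genes was −1.72.

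IGFBP5 had 2458, 2463 and 2838 CPM in fed ΔLEO1 cells and 1682, 1624 and 2423 CPM in 0.1% serum. The groups did not overlap, but library 12 reached 2423 CPM, just under the lowest library in 10% serum. The fall was 1.45 (log2, SE 0.43, adjusted p = 0.010), 0.40 further than the median gene. It was lost without library 4, 10 or 11 (adjusted p up to 0.099), and on the gene scale the value was −0.51 (adjusted p = 0.023). IGFBP7 fell by 1.18 (log2, SE 0.44, adjusted p = 0.027), a call lost without the same libraries (up to 0.14), and had −0.08 on the gene scale (adjusted p = 0.71).

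IGFBP4 was the member whose ERCC-scaled count was nearly the same in both sera in the clone. It had 75496, 54844 and 52081 in 10% serum and 62782, 31565 and 91363 in 0.1% serum, with wide overlap. The log2 difference was 0.03 (SE 0.44, 95% interval −0.83 to 0.88), where the median gene fell by 1.05, and it became −0.47 (adjusted p = 0.21) without the highest-numbered libraries. In CPM it went from 477, 471 and 494 to 1192, 1054 and 1007, with no overlap, and on the gene scale it rose by 1.12 (adjusted p = 2.4e-09). IGFBP6 had −0.54 on the ERCC scale (SE 0.44, adjusted p = 0.26) and 0.67 on the gene scale (adjusted p = 0.011). Without the highest-numbered libraries its ERCC-scale value was −0.85 and passed (adjusted p = 0.022), less than the fall of the median gene.

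**Figure D3:**
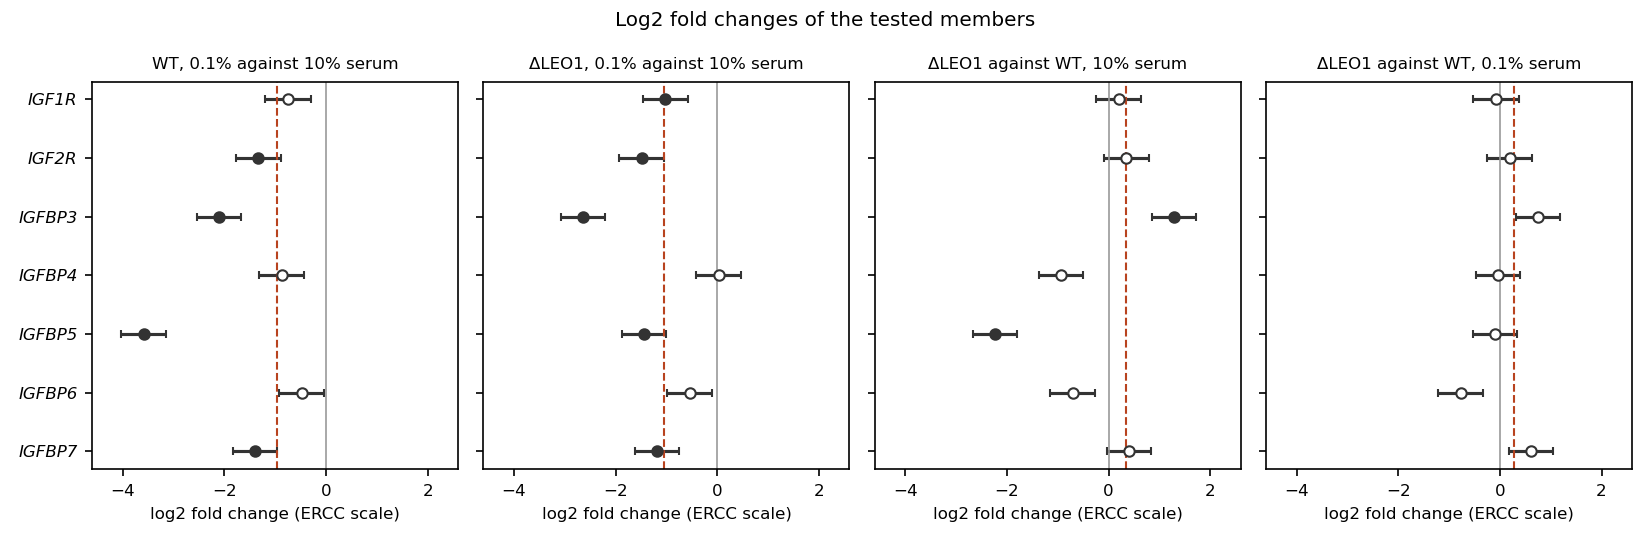
Log2 fold changes (x axis, ERCC scale) of the 7 tested members in 4 comparisons, with bars of 1 SE, filled symbols for an adjusted p under 0.05, a grey line at 0 and a dashed line at the median of all 13236 genes. IGFBP5 lies at −3.59 in wild type in low serum and at −2.23 between the genotypes in 10% serum, each over 2 log2 units below the dashed line.

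Between the genotypes in 10% serum, 1 member was called lower in ΔLEO1 cells and 1 higher, IGFBP5 and IGFBP3, where 4.64% of all genes were lower and 4.2% higher. The median of the 7 members was 0.20, against 0.35 over all genes. On the gene scale 3 members were lower (IGFBP5, IGFBP4 and IGFBP6) and 1 higher (IGFBP3), against 21.8% and 17.7% of all genes. This comparison shares its libraries with both low serum comparisons, so the values are not independent of them.

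IGFBP5 was 4.70-fold lower in ΔLEO1 cells, with 14808 to 15934 CPM in wild type and 2458 to 2838 CPM in the clone. The difference was −2.23 on the ERCC scale (log2, SE 0.43, adjusted p = 2.8e-05) and −2.58 on the gene scale (adjusted p = 1.1e-38). It lay between −2.42 and −2.04 with any library left out, and was −2.37 without the highest-numbered libraries (adjusted p = 3.8e-08). Every fed library of the clone lay below every fed wild-type library.

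IGFBP3 was 2.45-fold higher in ΔLEO1 cells, with 1709 to 3412 CPM in wild type and 5232 to 5728 CPM in the clone and no overlap. The difference was 1.29 (log2, SE 0.44, adjusted p = 0.041), or 1.02 on the gene scale (adjusted p = 7.2e-04). DESeq2 did not call it (adjusted p = 0.15). It was also lost in 7 of 12 fits that left out a library (2, 3, 4, 5, 6, 7 or 10), in which it lay between 0.92 and 1.44 with an adjusted p up to 0.42. Library 3 was the lowest wild-type library for this gene, with 1709 CPM, and without all highest-numbered libraries the value was 1.06 (adjusted p = 0.036).

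IGFBP4 and IGFBP6 were lower in the clone relative to the other genes. IGFBP4 had 1048 to 1471 CPM in wild type and 471 to 494 CPM in ΔLEO1 cells, and IGFBP6 had 380 to 457 and 188 to 203 CPM, so the groups of both were apart. On the gene scale the differences were −1.33 for IGFBP4 (adjusted p = 1.8e-13) and −1.09 for IGFBP6 (adjusted p = 5.2e-06). On the ERCC scale they did not pass, at −0.93 (95% interval −1.79 to −0.08, adjusted p = 0.23) and −0.71 (−1.57 to 0.16, adjusted p = 0.44). IGFBP7 differed by 0.40 on the ERCC scale (−0.45 to 1.26, adjusted p = 0.65) and IGF2R by 0.35 (−0.51 to 1.22, adjusted p = 0.69).

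In 0.1% serum 0 of 7 members were called in either direction, where 3.59% of all genes were lower in ΔLEO1 cells and 3.85% higher. No member had an unadjusted p under 0.05, and neither the quasi-likelihood test nor DESeq2 called one. The median of the 7 was −0.03, and that of all genes 0.27. IGFBP5 had 2301 to 3428 CPM in wild type and 1624 to 2423 CPM in the clone, which overlap, and differed by −0.09 (95% interval −0.95 to 0.76). IGFBP3 had 0.76 (−0.10 to 1.61) and, of the fits without 1 library, passed in the one without library 11 (1.09, adjusted p = 0.046). Without the highest-numbered libraries IGFBP3 turned to −0.29 (adjusted p = 0.62) and IGF2R from 0.19 to −0.70 (adjusted p = 0.17).

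Relative to the other genes, 2 members were lower in the clone in 0.1% serum and 1 higher, against 17.6% and 15.4% of all genes. IGFBP6 had 493, 567 and 787 CPM in wild type and 368, 354 and 231 CPM in ΔLEO1 cells, with no overlap and a difference of −0.93 (adjusted p = 1.7e-04). IGFBP5 differed by −0.50 (adjusted p = 0.023). IGFBP7 was higher, with 1012 to 1179 CPM in the clone against 760 to 861 CPM in wild type and a difference of 0.42 (adjusted p = 0.0078).

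The response to serum was compared between the genotypes as an interaction, the change in ΔLEO1 cells minus that in wild-type cells. On the ERCC scale 0 of 7 members were called, where 0.0831% of all genes were lower and 0.136% higher. IGFBP5 alone had an unadjusted p under 0.05, and the quasi-likelihood test and DESeq2 called none. Its interaction was 2.14 (log2, SE 0.62, 95% interval 0.93 to 3.35, adjusted p = 0.15), 2.21 above the median gene. Of the fits without 1 library it passed in the one without library 11 (2.51, adjusted p = 0.0013), and it was 1.48 (adjusted p = 0.18) without the highest-numbered libraries.

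On the gene scale 2 members were called higher and 0 lower in the interaction, against 3.06% and 1.02% of all genes. IGFBP5 had 2.08 (log2, adjusted p = 1.9e-12), since it fell by 2.59 in wild-type and by 0.51 in ΔLEO1 cells. IGFBP4 had 1.05 (adjusted p = 9.3e-04), with 0.07 in wild-type and 1.12 in ΔLEO1 cells. So the smaller fall of IGFBP5 in the clone was called relative to other genes and not called on the ERCC scale.

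The mix of binding proteins was described as each gene's share of the summed counts per kilobase of the 6 IGFBP members, a ratio that is the same on both scales. IGFBP5 took 54.9% ± 2.5 (SD, n = 3) in fed wild-type cells, 19.1% ± 2.7 in 0.1% serum, 15.9% ± 1.2 in fed ΔLEO1 cells and 14.9% ± 3.4 in 0.1% serum. IGFBP3 took 13.4% ± 4.3, 13.2% ± 5.1, 47.2% ± 2.2 and 20.2% ± 3.1 in the same order. In fed cells the leading gene was thus IGFBP5 in every wild-type library and IGFBP3 in every library of the clone. IGFBP4 went from 12.6% to 27.6% in wild type and from 8.67% to 24.8% in the clone, and IGFBP6 from 7.0% to 20.7% and from 5.70% to 11.9%. IGFBP7 had 12.1% and 19.4% in wild type and 22.5% and 28.1% in the clone. The sizes of these shares, above all that of IGFBP3, depend on the exon lengths used.

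**Figure D4:**
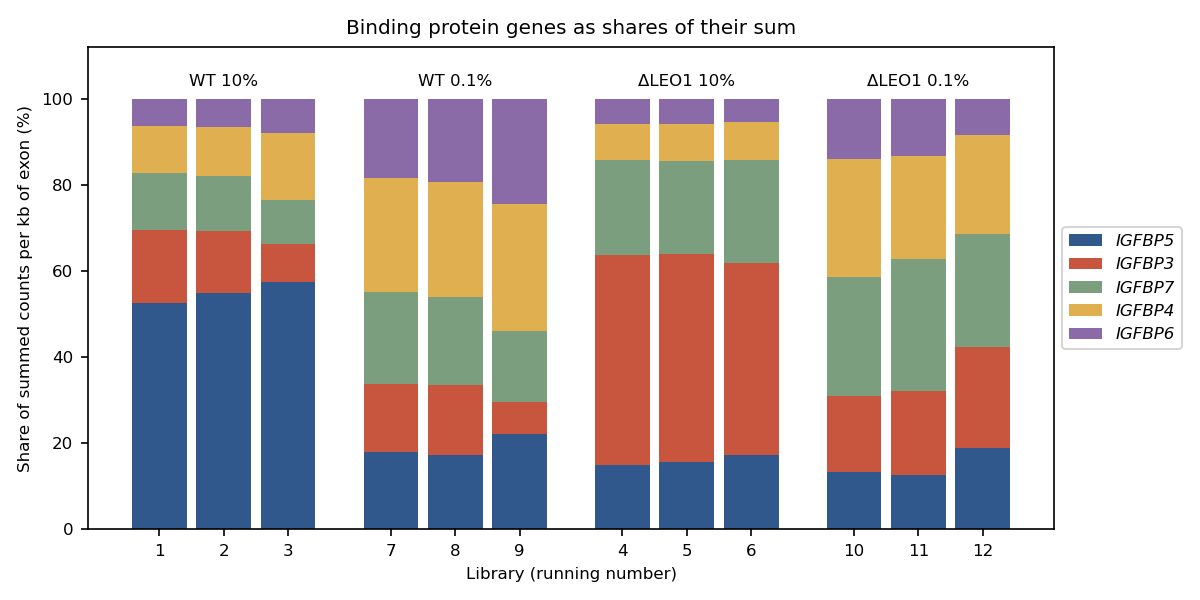
Share (%) of each binding protein gene in the summed counts per kilobase of exon, stacked by library and grouped by genotype and serum. IGFBP5 fills 52.5% to 57.5% of each bar of fed wild-type cells, and IGFBP3 has its largest share in fed ΔLEO1 cells (47.2% ± 2.2).

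Together the 10 members took 2.09% to 2.12% of all gene counts in fed wild-type cells and 0.992% to 1.04% in ΔLEO1 cells. In 0.1% serum they took 0.67% to 0.775% in wild type and 0.621% to 0.727% in the clone, with overlap.

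The genes whose pattern over the 12 libraries was most like that of a member were found by Pearson correlation of log2 CPM among 9541 genes. IGFBP5 was most like RDH10 (r = 0.984) and KLHL5 (0.971), IGFBP3 like DCAF12 (0.955) and COL4A1 (0.954), and IGFBP4 like FBLN5 (0.971) and DNAJB12 (0.961). IGFBP6 was nearest to CDC42EP5 (0.981), IGFBP7 to ISCA1 (0.914), IGF2R to AFF1 (0.968) and IGF1R to BRSK1 (0.939). These r describe 12 libraries that fall into 4 groups and share their library totals.

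Of 7 listed proteases of binding proteins and stanniocalcins, 6 were tested, and 4 proteases were called lower and 0 higher in fed ΔLEO1 cells, against 4.64% and 4.2% of all genes. The quasi-likelihood test and DESeq2 also gave this count. The median of the 6 was −1.92, where that of all genes was 0.35, and none was higher at an unadjusted p under 0.05. The 4 were PAPPA, which cuts IGFBP4 and IGFBP5, its relative PAPPA2, which cuts IGFBP5 and IGFBP3, the serine protease HTRA1 and the metalloprotease ADAM12. The count and the median include PAPPA2, which passed the filter only through wild-type libraries. Its call cannot be set against the share of all genes. The list was also chosen with earlier results of these data known, so its count and median are a description.

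PAPPA had 44.0, 44.9 and 45.1 CPM in fed wild-type cells and 137, 138 and 116 CPM in 0.1% serum. In ΔLEO1 cells it had 9.85, 10.8 and 10.4 CPM in 10% serum and 9.11, 10.2 and 15.2 CPM in 0.1% serum. All wild-type libraries lay above all libraries of the clone, and wild type in low serum was highest. The clone differed from wild type by −1.78 when fed (log2, SE 0.46, adjusted p = 0.0029) and by −3.15 when starved (SE 0.46, adjusted p = 1.3e-08). With summed libraries the starved difference passed (adjusted p = 0.0017) and the fed one did not (0.12). The low serum change of wild-type PAPPA was 0.51 on the ERCC scale (SE 0.46, adjusted p = 0.31) and 1.46 on the gene scale (adjusted p = 1.1e-19). Its interaction had −1.37 (log2, SE 0.65, adjusted p = 1.0) on the ERCC scale and −1.38 (adjusted p = 1.2e-07) on the gene scale. The ERCC-scale interaction was −2.37 (adjusted p = 0.0013) without the highest-numbered libraries, where the median of all genes was −0.67.

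PAPPA2 was scarce, with 1.35 to 4.42 CPM in wild type and 0.05 to 0.24 CPM in the clone in 10% serum, a difference of −3.95 (log2, SE 0.60, adjusted p = 1.3e-08). It passed the filter only through wild-type libraries, where it was high (no library of the clone was above 0.37 CPM), so it had to differ. HTRA1 had 169 to 241 CPM in wild type and 39.6 to 45.9 CPM in the clone (−2.06, SE 0.45, adjusted p = 2.3e-04). ADAM12 had 9.69 to 17.7 and 1.35 to 2.81 CPM (−2.37, SE 0.50, adjusted p = 1.4e-04). None of these groups overlapped, and the differences were negative on the gene scale too.

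In 0.1% serum 2 of the 6 were called lower in the clone (PAPPA and PAPPA2) and 1 higher, where 3.59% and 3.85% of all genes were. The latter was the stanniocalcin STC2, whose product inhibits PAPPA. PAPPA2 had −2.77 (log2, adjusted p = 2.0e-04) and missed the threshold in DESeq2 (0.070) and with summed libraries (0.053). It passed the filter only through wild-type libraries, so its call cannot be set against these shares. STC2 had 1.40 (SE 0.44, adjusted p = 0.028, DESeq2 0.11), with 48.5, 52.8 and 215 CPM in wild type and 163, 150 and 249 CPM in the clone. These overlap, since wild-type library 9 lay within the range of the clone. The STC2 call was lost without library 7, 8 or 12 (adjusted p up to 0.52), and with a library left out the value ran from 0.54 to 2.12. It was also lost in the fit with summed libraries (adjusted p = 0.27). HTRA1 had −1.21 (adjusted p = 0.089) and ADAM12 −0.39 (adjusted p = 0.82). Both passed without the highest-numbered libraries, at −1.87 (adjusted p = 1.0e-05) and −1.43 (adjusted p = 0.0017), where the median of all genes was −0.42. They also passed on the gene scale, at −1.50 (adjusted p = 6.8e-20) and −0.87 (adjusted p = 0.038).

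**Figure D5:**
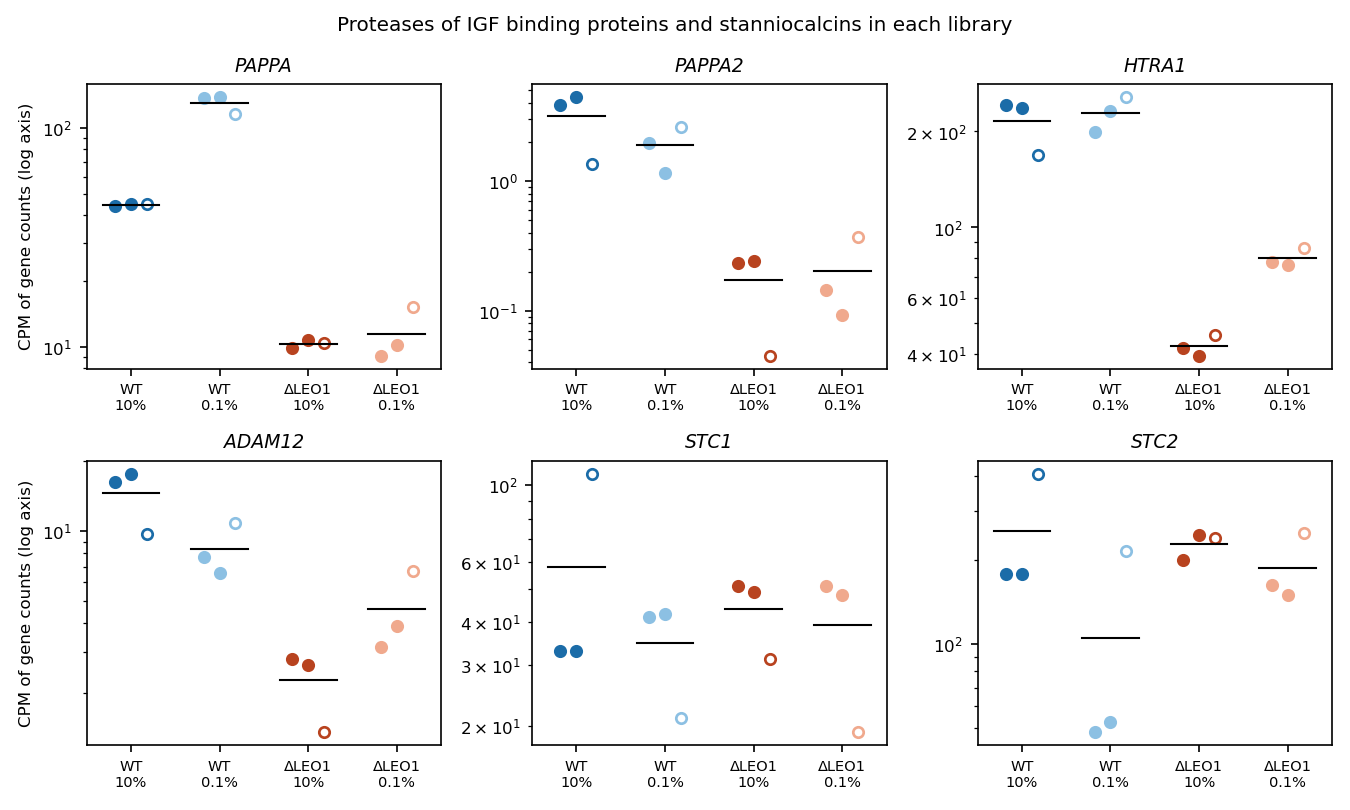
CPM (log axis) of 4 proteases of binding proteins and of the stanniocalcins STC1 and STC2 in each library, by genotype and serum, with bars at the group means and open symbols for the highest-numbered library. PAPPA lies between 9.11 and 15.2 CPM in all 6 libraries of the clone and between 44.0 and 138 CPM in wild type.

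With low serum in wild-type cells 4 of the 6 were called lower and 0 higher, where 36.1% and 0.944% of all genes were. STC2 fell by 2.36 (log2, SE 0.44, adjusted p = 1.9e-05), PAPPA2 by 1.99 (adjusted p = 0.0029), ADAM12 by 1.98 (adjusted p = 0.0016) and STC1 by 1.52 (adjusted p = 0.0087). PAPPA2 was not called by DESeq2 (adjusted p = 0.055) or on the gene scale (−0.82, adjusted p = 0.24), and its groups overlapped. STC1 was lost without library 7 or 9 (adjusted p up to 0.13) and on the gene scale (−0.82, adjusted p = 0.20). With summed libraries ADAM12 (adjusted p = 0.12), PAPPA2 (0.16) and STC1 (0.051) did not pass in wild type, and STC2 did (0.017). STC1 and STC2 were highest in wild-type library 3, with 108 and 406 CPM, against 32.9 CPM (STC1) and 178 CPM (STC2) in both other fed wild-type libraries. STC1 had −0.76 (adjusted p = 0.045) and STC2 −2.92 (adjusted p = 5.0e-12) without the highest-numbered libraries. The median of all genes was −1.03 in that fit. In ΔLEO1 cells 2 were called lower, STC1 by 1.54 (adjusted p = 0.0094) and STC2 by 1.26 (adjusted p = 0.023), and 0 higher. STC1 was lost without library 4 and STC2 without library 4, 5, 10 or 11 (adjusted p up to 0.13), and neither passed on the gene scale (adjusted p = 0.81 and 0.64). Neither passed in the clone with summed libraries (0.32 and 0.39).

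The wider pathway had medians close to those of all genes. Its list, with IGFBP1, IGFALS and IGFBPL1, the proteases and stanniocalcins, the insulin receptors, the adaptors, PI3K and AKT with their antagonists, the mTOR branch, FOXO and GSK3 and the IGF2 mRNA-binding proteins, had 55 genes, of which 46 were tested. In starved wild-type cells 23 were called lower and 0 higher, beside 36.1% and 0.944% of all genes, with a median of −1.07 beside −0.97. In ΔLEO1 cells 22 were lower and 0 higher, beside 47.2% and 0.975%, with a median of −1.01 beside −1.05. The quasi-likelihood test called 17 and 19 of them lower and 0 higher, DESeq2 22 and 23 lower and 0 higher, and none was higher at an unadjusted p under 0.05. Relative to the other genes, 10 were lower and 6 higher in wild type (16.6% and 16% of all genes), and 5 lower and 11 higher in the clone (12.9% and 16.5%). IGFBP1, a binding protein known from liver, had no count in any library, which allows up to 0.0662 to 0.114 CPM.

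Among the adaptors SHC1 fell by 1.78 (log2, adjusted p = 0.0014) in wild-type and by 1.75 (adjusted p = 0.0026) in ΔLEO1 cells. The kinase gene AKT1 fell by 1.38 (adjusted p = 0.015) in wild type. MTOR fell by 1.55 (adjusted p = 0.0071), GSK3B by 1.66 (adjusted p = 0.0036) and the translation repressor gene EIF4EBP1 by 1.63 (adjusted p = 0.0052). These 6 values were also negative on the gene scale, from −0.86 to −0.42, where EIF4EBP1 did not pass (adjusted p = 0.066). In wild type the ERCC-scale call of AKT1 was lost without library 1, 2, 7 or 9 (adjusted p up to 0.10), that of MTOR without library 1, 7 or 9 (up to 0.070) and that of EIF4EBP1 without library 7 (0.079). With summed libraries SHC1 passed in wild type (adjusted p = 0.049) and not in the clone (0.27). AKT1 (0.16), MTOR (0.14), GSK3B (0.095) and EIF4EBP1 (0.16) did not pass in wild type in that fit. INSR, the insulin receptor gene, did not pass in any of the 4 comparisons on the ERCC scale with all libraries. Without the highest-numbered libraries INSR passed in low serum in wild type (−1.02, adjusted p = 0.0089) and in the clone (−1.27, adjusted p = 5.9e-04). The median of all genes in that fit was −1.03 in wild type and −1.72 in the clone, so INSR fell no further than the median gene. On the gene scale INSR was lower in the clone in 10% serum (−0.77, adjusted p = 8.0e-07) and 0.1% serum (−0.40, adjusted p = 0.019), and higher in the starved than in the fed clone (0.47, adjusted p = 0.0065).

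Between the genotypes on the ERCC scale the pathway beyond the proteases and stanniocalcins held 1 call in each serum, that of IGF2BP1, which encodes an RNA-binding protein of IGF2 transcripts. IGF2BP1 had 12, 8 and 8 counts in wild type and 27, 38 and 38 in the clone in 10% serum. In 0.1% serum it had 8, 9 and 7 counts in wild type and 36, 42 and 66 in the clone. No group of one genotype overlapped with the other. IGF2BP1 was higher by 2.0 in 10% serum (log2, SE 0.59, adjusted p = 0.013) and by 2.75 in 0.1% serum (SE 0.60, adjusted p = 2.0e-04). It passed the filter only through the ΔLEO1 libraries in 0.1% serum, where it was highest (1.04 to 1.87 CPM), so it had to differ there, and it fell under the filter when any single library of that group was left out. The call in 10% serum was also lost without library 2 or 3 (adjusted p up to 0.12). Over the 46 genes 4 were lower and 1 higher in 10% serum, where 4.64% and 4.2% of all genes were, and 2 lower and 2 higher in 0.1% serum, where 3.59% and 3.85% were. These counts include PAPPA2 and IGF2BP1, which passed the filter only through libraries where they were high. The medians were 0.30 and 0.31 beside 0.35 and 0.27 over all genes. On the gene scale 14 were lower and 5 higher in 10% serum (21.8% and 17.7% of all genes), and 11 lower and 4 higher in 0.1% serum (17.6% and 15.4%). The interaction on the ERCC scale called 0 of 46, with 1 lower and 1 higher at an unadjusted p under 0.05, and 0 in the quasi-likelihood test and DESeq2.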

How the data were processed

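Poly(A) RNA of 12 libraries was sequenced as stranded paired-end reads. Alignment by the authors used STAR on an Ensembl genome joined with the ERCC sequences, and exon counting used featureCounts 1.5.1. The deposited files hold raw counts per gene and per ERCC transcript. The STAR version is 2.7.10a in the submitters' processing notes, which differs from the methods text. The annotation release and the strand setting are not given in the sources used here.

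Genes above 1 CPM in at least 3 libraries were fitted in R 4.3.3 with edgeR 4.0.16, all 12 libraries in a single model of 4 groups, with the ERCC total times a TMM factor on the ERCC transcripts as library size. Likelihood ratio tests were two-sided, with Benjamini-Hochberg adjustment over 13236 genes and a threshold of 0.05. The quasi-likelihood test, DESeq2 1.42.0, TMM on the genes, other filters and fits without libraries were alternatives. Gene positions came from GENCODE on GRCh38. Intervals of log2 fold changes are 1.96 SE, and those of low counts are exact. The procedure was tested on simulated data. The members and gene lists were chosen with earlier results of these data known. The genes named are the members, LEO1, list genes past the threshold and the 2 genes most like a member. The values of 1 list gene are not reported here.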

Additional observations from a re-analysis of the deposited data

How the results depend on the processing

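With low serum in wild type, 4 members were lower in the report, and IGFBP5 and IGFBP3 kept their calls there with each library left out, as did IGFBP3 in the clone and IGFBP5 between the genotypes in 10% serum. Where the 2 lowest-numbered libraries were summed in each group, the fit left 2 lower in wild type, 1 lower in the clone and 0 higher between genotypes in 10% serum, with fewer libraries. Of 12916 genes, 548, 159 and 238 were called in these directions. TMM on the genes and DESeq2's size factors of the genes each gave 3 lower and 2 higher in the clone, 3 lower in 10% serum, 2 lower and 1 higher in 0.1% serum and 2 higher in the interaction. For TMM on the genes, the shares of all genes are given with each comparison above. No filter and filterByExpr, which bring in scarce members, each gave 1 higher in wild type and 2 lower in 10% serum. In 0.1% serum they gave 1 and 2 lower, and filterByExpr gave 1 higher in the clone. With no filter 150 of 32285 genes were higher in wild type, 803 lower in 10% serum and 682 lower in 0.1% serum. With filterByExpr these were 163, 782 and 634 of 15722, with 145 higher in the clone. With no filter and with DESeq2 0 members were higher in 10% serum. Only the 6 libraries compared gave 3 lower in the clone, where 1651 of 12542 genes were. Without the highest-numbered libraries 1 was lower in 0.1% serum (IGF1R), 5 in wild type in low serum (IGFBP4 added) and 6 in the clone (IGFBP6 added). In that fit 2047 of 12911 genes were lower in 0.1% serum, 9343 in wild type in low serum and 12020 in the clone. Such calls were thus common among all genes in low serum.

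Values that turned sign under TMM on the genes and under the size factors of the genes were, in wild type in low serum, IGF1R at 0.20 and 0.20, IGFBP4 at 0.067 and 0.067 and IGFBP6 at 0.50 and 0.50. In the clone IGFBP6 turned to 0.67 and 0.66, between genotypes IGF1R in 10% serum to −0.13 and −0.11 and IGF2R in 0.1% serum to −0.17 and −0.16, and the interaction of IGFBP6 to 0.16 and 0.16. Without the highest-numbered libraries IGFBP4 in the clone turned to −0.47, IGF1R in 10% serum to −0.054, the interaction of IGFBP7 to −0.20, and, in 0.1% serum, IGF2R to −0.70, IGFBP3 to −0.29 and IGFBP7 to −0.00053. With libraries summed, IGF1R, IGFBP4 and IGFBP5 in 0.1% serum turned to 0.32, 0.16 and 0.19, and the interactions of IGF2R and IGFBP6 to 0.12 and 0.013. The causes were not tested.

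With each library left out, 2 to 5 members were lower in wild type (5 without library 11 or 12), 1 to 5 lower in the clone and 0 to 1 higher between genotypes in 10% serum. In 0.1% serum and in the interaction 0 to 1 were higher. Over all genes, 1137 to 8598 were lower in wild type, 641 to 11651 lower in the clone and 333 to 1068 higher in 10% serum. In 0.1% serum 314 to 1310 genes were higher, and in the interaction 8 to 57. Values that turned sign ranged from −0.37 to 0.34 for IGFBP4 in the clone, and, between genotypes in 0.1% serum, from −0.79 to 0.27 for IGF1R, −0.53 to 0.57 for IGF2R, −0.43 to 0.28 for IGFBP4 and −0.89 to 0.28 for IGFBP5. For the interaction they ranged from −0.99 to 0.070 for IGF1R, −0.89 to 0.22 for IGF2R, −0.24 to 0.19 for IGFBP6 and −0.21 to 0.49 for IGFBP7. No paired analysis was possible because the groups share no replicate numbers. An SE near 0.44 limits what the ERCC scale can show, and the counts of IGF1, IGF2 and IGFBP2 allow no more than coarse ratios.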

Other observations

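H19, the imprinted neighbour of IGF2, had no count in 10 libraries and 28, 34 and 0 counts in the ΔLEO1 libraries after low serum. The highest-numbered library was the one at 0.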
